A study of Danio rerio with 6 samples.

Results

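Very broad open regions of the zebrafish genome were taken as ATAC-seq peaks of 1500 bp or more on chromosomes 1 to 25. Peak width in the deposited lists chose them, so their number, width and recurrence over the same lists are given as a description, without a test. There were 288 such peaks among 100305 peaks in the 6 libraries, and those that overlapped by at least 1 bp merged into 150 regions, among 71293 merged regions of all peaks.

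The libraries came from GFP-positive cells, labelled as cardiomyocytes, that were sorted from AB-strain larvae, 5 days after fertilisation. The 3 wt1b libraries were made from fish with the transgene Tg(eGFP:5xUAS:wt1b; gcryst:cerulean)cn15 together with the driver Tg(myl7:Gal4)cbg2Tg, and the 3 control libraries from fish with Tg(eGFP:5xUAS:RFP; gcryst:cerulean)cn15 and the same driver. Fish of both groups therefore carried Gal4 driven by the promoter of myl7, a heart muscle gene, a UAS reporter with eGFP, and a cerulean marker named for a crystallin gene. They differed in whether the UAS also drove wt1b or the red fluorescent protein RFP. The labels name no wild-type group without Gal4, do not say how many larvae entered a library, and do not say whether libraries of a group came from separate clutches. A test over libraries thus measures only the spread between these libraries, which may be technical. Sorting on GFP selects cells in which the Gal4 driver was active, and the defining genes of heart muscle and of other cell types were not analysed here, because no annotation in the coordinates of the lists (GRCz11, per the submitters' processing notes) was at hand. For the same reason regions are named by position only and no gene is assigned to them.

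In ATAC-seq the transposase Tn5 cuts DNA that is not wrapped around nucleosomes, and a peak marks a stretch where cuts pile up. Most peaks are the size of a nucleosome-free stretch at an enhancer or promoter. A call many times wider can arise where neighbouring open elements lie so close that a peak caller joins them. wt1b encodes a zinc-finger transcription factor of the WT1 family, which in the heart is known from the epicardium, the cell layer that covers the muscle. The study asked how forced wt1b in heart muscle cells changes accessible chromatin.

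Broad peaks were rare in every library, fewer in number in wt1b libraries and a larger share of their shorter lists. The lists of wt1b replicates 1, 2 and 3 held 50, 26 and 25 broad peaks, and those of control replicates 1, 2 and 3 held 66, 63 and 58. The mean was 33.7 ± 14.2 in wt1b and 62.3 ± 4.04 in control libraries (SD, n = 3 each), and the groups did not overlap. wt1b replicate 1 came closest to the lowest control list, and the other 2 wt1b lists were well below it. As a share of their list, broad peaks made up 0.537% (exact Clopper-Pearson 95% interval 0.399% to 0.707%), 0.631% (0.412% to 0.923%) and 0.611% (0.396% to 0.901%) in wt1b replicates 1, 2 and 3. In control replicates 1, 2 and 3 the shares were 0.221% (0.171% to 0.281%), 0.213% (0.164% to 0.273%) and 0.249% (0.189% to 0.321%). By share the order of the groups was turned, with every wt1b list above every control list.

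The wt1b lists were shorter by 4.72-fold on average, with 9310, 4122 and 4091 peaks in replicates 1, 2 and 3, against 29887, 29561 and 23334 in control replicates 1, 2 and 3, while broad peaks were fewer by 1.85-fold. The share has list length as its denominator. Every list was also reduced to its top 4091 peaks by score times width, a ranking that favours broad peaks and kept all of them. This left wt1b replicate 3 whole and wt1b replicate 2 nearly so. The share then restated the count over a common denominator, 0.823% ± 0.346 of wt1b and 1.52% ± 0.0988 of control lists (SD, n = 3 each). Read depth is not given in the lists, and in bulk cells a smaller open fraction of cells cannot be told apart from lower accessibility in each cell.

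**Figure D1:**
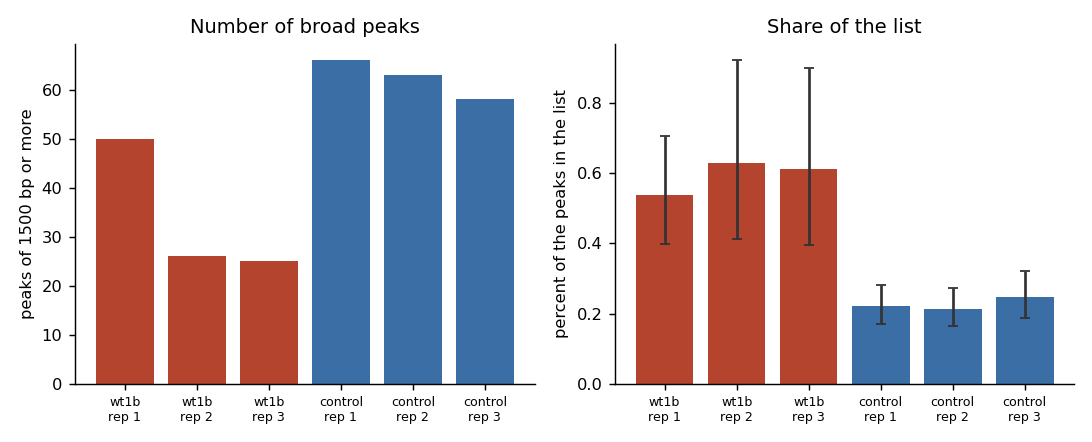
Number of peaks of 1500 bp or more (left axis, count) and their share of all peaks of the list (right panel, percent) in each library, wt1b in red and control in blue; error bars are exact 95% intervals, which cover counting error of peaks only. wt1b lists hold fewer broad peaks (25 to 50) than control lists (58 to 66) and a higher share (0.537% to 0.631% against 0.213% to 0.249%).

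Widths above the threshold were alike in the groups. The median broad peak was 1741, 1945 and 1817 bp wide in wt1b replicates 1, 2 and 3, and 1702, 1814 and 1726 bp in control replicates 1, 2 and 3, with overlapping ranges. For scale, the median peak of any width was 417 to 448 bp in wt1b and 369 to 461 bp in control lists, and the 99th percentile was 1266 to 1315 bp in wt1b and 1030 to 1172 bp in control lists. The widest peak of a list measured 4041, 4731 and 3613 bp in wt1b replicates 1, 2 and 3, against 4402, 4038 and 4907 bp in control replicates 1, 2 and 3. Peaks of 2000 bp or more numbered 18, 13 and 11 in wt1b replicates 1, 2 and 3, and 15, 21 and 18 in control replicates 1, 2 and 3. At this higher width the groups overlapped, so the gap in number lay mostly between 1500 and 2000 bp. Broad peaks made up 2.44% to 2.90% of the base pairs called in wt1b libraries and 0.949% to 1.07% of those in control libraries.

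The threshold cuts through a continuous range of widths. The narrowest members were 1500 to 1502 bp wide in the wt1b and in the control lists. The widest peaks left out measured 1470, 1493 and 1487 bp in wt1b replicates 1, 2 and 3, and 1499, 1497 and 1498 bp in control replicates 1, 2 and 3. Peaks of 1400 to 1499 bp numbered 4 to 13 per wt1b list and 18 to 25 per control list, and those of 1500 to 1599 bp numbered 5 to 10 and 8 to 17.

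Each peak had a score from the authors' peak caller, limited to 1000. Of the broad peaks, 72.0%, 73.1% and 60.0% were at this limit in wt1b replicates 1, 2 and 3, against 59.1%, 81.0% and 58.6% in control replicates 1, 2 and 3. Among narrower peaks of the same lists, 35.2% to 42.5% were at the limit in wt1b and 20.4% to 35.3% in control libraries. The score is the authors' own value for a peak within its list, and levels are not compared between lists.

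Of the 150 merged regions, 92 were broad in 1 library, 28 in 2, 11 in 3, 6 in 4, 5 in 5 and 8 in all 6. By group, 44 regions were broad in at least 1 library of each group, 21 in wt1b libraries only and 85 in control libraries only. Most regions that were broad in a single group were thus broad in control, the group with more broad peaks to give. Of the 21 broad only in wt1b, 19 were broad in 1 library and 2 in 2 libraries. Of the 85 broad only in control, 73 were broad in 1 library, 11 in 2 and 1 in all 3.

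Libraries without a broad call at a region often had a narrower peak there. No peak was called at 26, 28 and 30 of the 150 regions in wt1b replicates 1, 2 and 3, and at 15, 12 and 13 in control replicates 1, 2 and 3, while 48, 25 and 23 regions were broad in wt1b replicates 1, 2 and 3 and 64, 60 and 58 in control replicates 1, 2 and 3. Some peak of any width was called in all 6 libraries at 102 of the 150 regions (68%), where the share over all merged regions was 1.81%. A wt1b peak was lacking at 18 regions (12%), against 84.3% of all merged regions, and a control peak at none, against 5.07%. All 21 regions broad only in wt1b overlapped a control peak, and 67 of the 85 broad only in control overlapped a wt1b peak. Since membership was read from the same lists, nothing is concluded from these shares; the look-up in libraries that took no part in the choice is given further on.

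The regions broad in all 6 libraries ranged from 1741 to 5215 bp in merged length. The most sharply repeated was chr7:64598170-64601596. Its peak was 3390, 3365 and 3390 bp wide in wt1b replicates 1, 2 and 3, and 3418, 3419 and 3378 bp in control replicates 1, 2 and 3. Its starts lay within 17 bp and its ends within 48 bp of each other over the 6 libraries, and every peak had the limiting score.

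A second region with fixed edges was chr14:20094272-20096012, with peaks of 1741, 1658 and 1683 bp in wt1b replicates 1, 2 and 3 and 1621, 1682 and 1710 bp in control replicates 1, 2 and 3. Its starts lay within 94 bp and its ends within 31 bp. The wt1b and control widths interleaved, at 1694 ± 42.6 bp and 1671 ± 45.5 bp (SD, n = 3 each).

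In 2 other regions each library had exactly 1 broad peak with a start that varied less than its end. At chr3:26126372-26128970 the peak was 2589, 1808 and 1739 bp wide in wt1b replicates 1, 2 and 3, against 2004, 2005 and 1991 bp in control replicates 1, 2 and 3. The control widths lay between those of wt1b replicates 1 and 2, with an SD of 7.81 bp in control and 472 bp in wt1b libraries. At chr8:4800222-4802698 the widths were 2466, 2087 and 1549 bp in wt1b replicates 1, 2 and 3, and 1707, 2276 and 1587 bp in control replicates 1, 2 and 3. Starts varied over 231 bp on chromosome 3 and 114 bp on chromosome 8, and ends over 755 bp and 890 bp.

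At the other 4 regions gaps divided the stretch in some libraries. At chr11:17564987-17569466 wt1b replicate 1 had 1 peak of 4041 bp, wt1b replicate 2 had peaks of 2094 and 2218 bp with a gap of 146 bp, and wt1b replicate 3 had peaks of 2065 and 1907 bp with a gap of 157 bp. Control replicates 1, 2 and 3 each had 1 peak there, of 4402, 4038 and 4464 bp. The total called length nonetheless overlapped between the groups, at 4108 ± 180 bp in wt1b and 4301 ± 230 bp in control libraries (SD, n = 3 each).

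At chr4:77558010-77561688 the divided library was a control. Its peaks were 3305, 3346 and 3613 bp wide in wt1b replicates 1, 2 and 3, and 3604 and 3523 bp in control replicates 1 and 3, whereas control replicate 2 had peaks of 1976 and 1209 bp with a gap of 159 bp. At chr7:53012044-53015422 the widest peak was 2634, 2065 and 2620 bp in wt1b replicates 1, 2 and 3, and 3308, 2787 and 2678 bp in control replicates 1, 2 and 3. All 3 control peaks were wider than all 3 wt1b peaks there, a difference that was not tested because width chose the region. Counting every overlapping peak in full, 2833 ± 199 bp were called in wt1b and 3869 ± 486 bp in control libraries (SD, n = 3 each). The control value includes bases outside the region, because peaks of control replicates 2 and 3 began at 53011076 and 53010979.

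The longest of the 8, chr25:27681725-27686939, was also the least alike between libraries. wt1b replicate 2 and control replicate 3 called it as 1 peak, of 4731 and 4907 bp. wt1b replicate 1 had peaks of 1651 and 1729 bp, and wt1b replicate 3 had peaks of 1730, 868 and 1516 bp. Control replicate 1 had peaks of 1770, 2226 and 321 bp, and control replicate 2 had peaks of 645, 470 and 1883 bp. The widest gap between pieces was 697 and 324 bp in wt1b replicates 1 and 3, and 750 and 2001 bp in control replicates 1 and 2. No peak of this region was at the score limit, in contrast with the other 7, where all peaks were. Its called length averaged 4075 ± 676 bp in wt1b and 4074 ± 977 bp in control libraries (SD, n = 3 each).

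**Figure D2:**
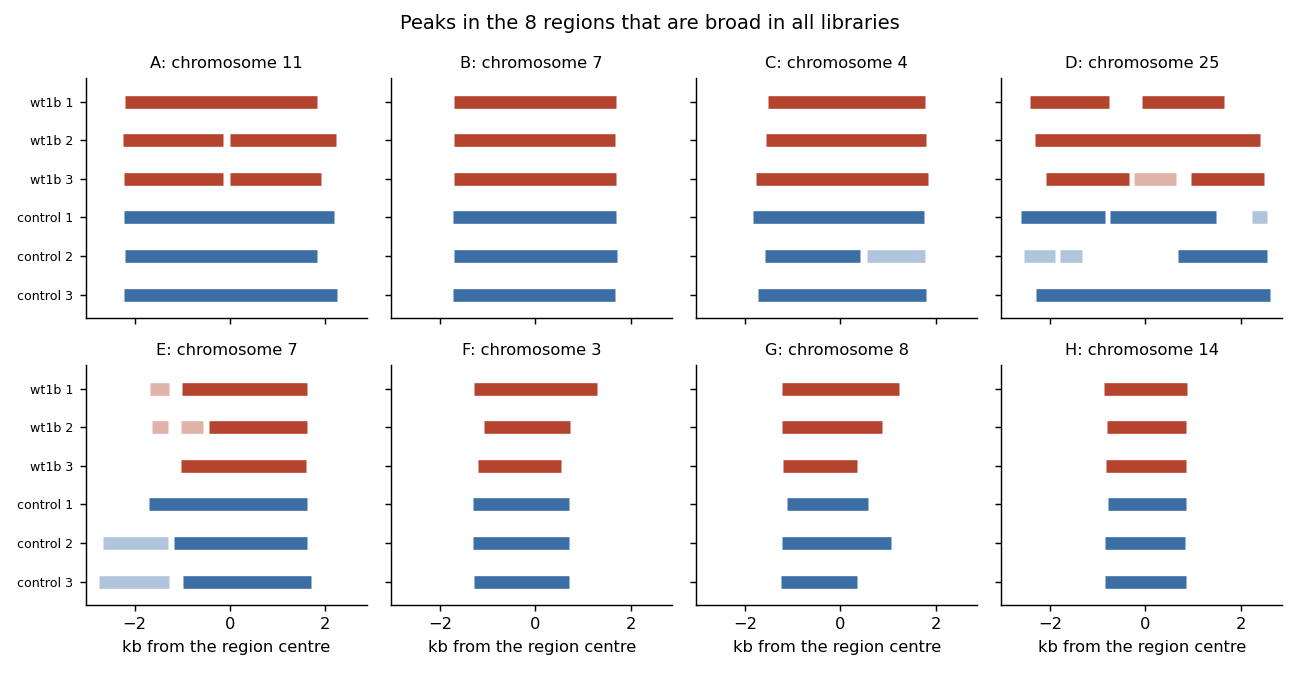
Peaks called in each library at the 8 regions that hold a broad peak in all 6 libraries, drawn to scale as distance from the centre of the merged region (x axis, kb); wt1b libraries are in red above control libraries in blue, full colour marks peaks of 1500 bp or more and pale colour narrower ones. Panels A to H are the regions on chromosomes 11, 7 (from 64598170), 4, 25, 7 (from 53012044), 3, 8 and 14. The edges repeat closely in B and H, and gaps divide the stretch in 2 wt1b libraries in A, in 1 control library in C, and in libraries of both groups in D and E.

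The next regions in recurrence were broad in 5 libraries. At chr20:46550959-46554829 the widest peak was 2329, 1601 and 889 bp in wt1b replicates 1, 2 and 3, and 1802, 3871 and 2217 bp in control replicates 1, 2 and 3. The library without a broad call, wt1b replicate 3, still had 3 peaks there. At chr1:55744587-55747534 the widest peak was 2880, 2423 and 1620 bp in wt1b replicates 1, 2 and 3, and 1208, 2480 and 2151 bp in control replicates 1, 2 and 3. Here control replicate 1 was the exception, with peaks of 1208 and 1163 bp on either side of a gap of 126 bp.

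The widest single peaks outside these regions differed in recurrence, and their regions were broad in 1 to 5 libraries. At chr16:36409811-36413857 wt1b replicate 1 had peaks of 820 and 953 bp, wt1b replicate 3 had peaks of 616 and 496 bp, and wt1b replicate 2 had none. Control replicate 3 had 1 peak of 4047 bp there, and the other control lists had 3 peaks each, the widest 1002 bp in replicate 1 and 622 bp in replicate 2. At chr20:53965118-53968644 wt1b replicate 1 and control replicate 2 had peaks of 3452 and 3267 bp, the other 2 wt1b libraries had 3 peaks each, control replicate 3 had 2, and control replicate 1 had none. These neighbouring calls ranged from no peak to 1 unbroken stretch within a group. At chr20:53971950-53977278, the longest merged region at 5329 bp, the widest peak was 1625, 988 and 606 bp in wt1b replicates 1, 2 and 3, and 864, 3460 and 2050 bp in control replicates 1, 2 and 3. The region chr10:16808200-16811633 was broad in 5 libraries. Its widest peak was 3319, 2175 and 2458 bp in wt1b replicates 1, 2 and 3, and 1544, 1711 and 1498 bp in control replicates 1, 2 and 3. Control replicate 3 had 3 peaks there, of which the widest was just under the threshold. At chr8:35053372-35056834 the widest peak was 3302, 1062 and 859 bp in wt1b replicates 1, 2 and 3, and 1875, 3278 and 1710 bp in control replicates 1, 2 and 3. At none of these 5 regions was every library of a group broad and no library of the other.

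Only 2 regions were broad in 2 wt1b libraries and in no control library. Both were picked for this difference in width, so group differences in width or called length are not findings about them. At chr11:15325013-15327461 wt1b replicates 1 and 3 had peaks of 1850 and 2447 bp, and wt1b replicate 2 had peaks of 563 and 740 bp. Control replicate 3 had a peak of 742 bp, control replicate 2 had peaks of 162 and 438 bp, and control replicate 1 had none. The called length was 1867 ± 572 bp in wt1b and 447 ± 394 bp in control libraries (SD, n = 3 each), and the groups did not overlap.

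At chr25:27675176-27676911, less than 5 kb from the long region on this chromosome, the wt1b peaks were 1736, 1550 and 1290 bp wide in replicates 1, 2 and 3. Control replicate 1 had peaks of 924 and 348 bp, and control replicates 2 and 3 had peaks of 706 and 1076 bp. All wt1b peaks were wider than all control peaks there, and no peak of either group was at the score limit.

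In the opposite direction, 12 regions were broad in 2 or 3 control libraries and in no wt1b library, and a narrower peak was called in all 3 wt1b libraries at each of the 12. Of all 85 regions broad only in control, 50 had a peak in all 3 wt1b libraries. The share of all merged regions with a peak in all 3 wt1b libraries was not computed, so this count is a description only. Each of the 12 also had a peak in all 6 libraries, which held for 1.81% of all merged regions. At least 2 control calls were fixed by the choice of the 12, so nothing is concluded from this contrast. Broad in all 3 control libraries was chr7:64602111-64606180, which begins 514 bp after the end of the sharply repeated region on the same chromosome. Its widest peak was 847, 939 and 1113 bp in wt1b replicates 1, 2 and 3, against 1946, 1861 and 2092 bp in control replicates 1, 2 and 3. Called length, which sums these widths with those of any other pieces, was 2224 ± 259 bp in wt1b and 3126 ± 391 bp in control libraries (SD, n = 3 each), without overlap. The region was picked for its difference in width, so neither difference is a finding about it.

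At chr1:51731084-51735217 the widest peak was 729, 940 and 687 bp in wt1b replicates 1, 2 and 3, and 1695, 2264 and 1181 bp in control replicates 1, 2 and 3. At chr22:24526025-24528593 it was 1099, 892 and 917 bp in wt1b replicates 1, 2 and 3, and 1424, 1615 and 2569 bp in control replicates 1, 2 and 3. In both regions every control library had a wider peak than any wt1b library. At chr16:36407531-36409392 it was 888, 649 and 708 bp in wt1b replicates 1, 2 and 3, and 1862, 907 and 1716 bp in control replicates 1, 2 and 3, so that control replicate 2 was only just above the wt1b libraries. At chr16:15665522-15667243 it was 632, 1365 and 737 bp in wt1b replicates 1, 2 and 3, and 1696, 320 and 1688 bp in control replicates 1, 2 and 3, and there the groups overlapped. These regions were picked for their difference in width, so it is not a finding about them.

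**Figure D3:**
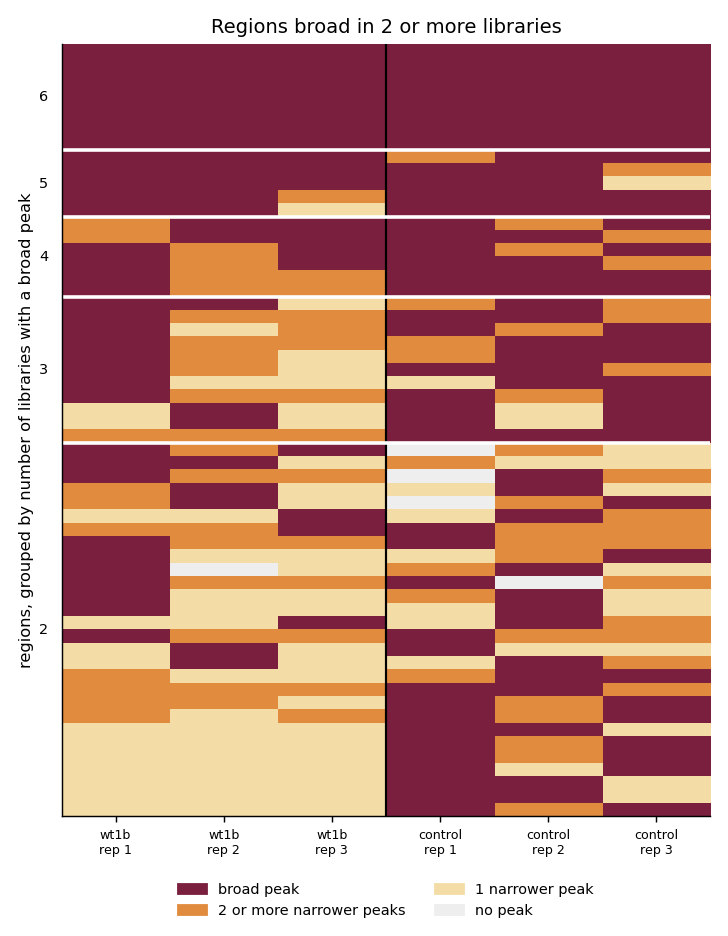
State of the 58 regions that were broad in 2 or more libraries (rows, grouped by the number of libraries with a broad peak, given at the left) in each library (columns, wt1b left of the line and control right of it). Colour gives a broad peak, 2 or more narrower peaks, 1 narrower peak or no peak; grey cells without a peak are few, and 12 rows are broad in control libraries only, with narrower peaks in all 3 wt1b libraries.

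Broad regions of the other 5 libraries were then looked up in each library in turn, so that the library read took no part in choosing them. Some peak was found at 111 of 137 regions (81.0%, 95% interval 73.4% to 87.2%) in wt1b replicate 1, at 120 of 148 (81.1%, 73.8% to 87.0%) in wt1b replicate 2 and at 116 of 146 (79.5%, 72.0% to 85.7%) in wt1b replicate 3. In control replicates 1, 2 and 3 it was found at 112 of 127 (88.2%, 81.3% to 93.2%), 115 of 127 (90.6%, 84.1% to 95.0%) and 112 of 125 (89.6%, 82.9% to 94.3%). Over all merged regions of the other 5 libraries the shares with a peak were 9.72%, 4.57% and 4.75% in wt1b replicates 1, 2 and 3 and 14.3%, 18.5% and 16.0% in control replicates 1, 2 and 3. In every library broad regions were found again more often than merged regions at large; a wider region also offers more bases to overlap.

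The share found again was 80.5% ± 0.924 in wt1b and 89.4% ± 1.19 in control libraries (SD, n = 3 each), a difference of -8.93 percentage points with no overlap of the groups. All merged regions gave the same order, with 4.57% to 9.72% in wt1b and 14.3% to 18.5% in control libraries. The lower share in wt1b is therefore not read as a trait of broad regions. The difference for broad regions was tested by exact two-sided permutation, with p = 0.1 (3 libraries against 3 allow none lower) and p = 0.15 after Benjamini-Hochberg adjustment over the 3 look-up tests. The direction for broad regions was not kept in lists of 4091 peaks each. That cut fell mainly on control lists and selected in part on width, so that the effect of length alone was not tested. There the shares were 79.8% ± 1.16 in wt1b and 77.6% ± 0.394 in control libraries (SD, n = 3 each), a reversal to 2.22 percentage points (exact permutation p = 0.1).

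A broad peak was found again at 25.5%, 15.5% and 13.0% of the regions in wt1b replicates 1, 2 and 3, where 0.0795%, 0.0353% and 0.0381% of all merged regions of the other libraries held one. In control replicates 1, 2 and 3 the shares were 32.3%, 29.1% and 26.4%, where 0.141%, 0.155% and 0.113% of all merged regions did. The mean was 18.0% ± 6.63 in wt1b and 29.3% ± 2.94 in control libraries (SD, n = 3 each; difference -11.2 percentage points; exact two-sided permutation p = 0.1, adjusted p = 0.15). The highest wt1b value, that of replicate 1, lay close to the lowest control value. A library can return no more broad regions than it holds. Of the 150 regions, 48, 25 and 23 were broad in wt1b replicates 1, 2 and 3, and 64, 60 and 58 in control replicates 1, 2 and 3. The difference therefore largely restates the number of broad peaks per list, and nothing is concluded from its p-value. Lists of equal size hold all broad peaks and therefore give the same values.

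The stretch was split into 2 or more narrower peaks at 24.1%, 25.7% and 23.3% of the regions in wt1b replicates 1, 2 and 3, where 0.657%, 0.397% and 0.313% of all merged regions were. In control replicates 1, 2 and 3 it was split at 23.6%, 33.1% and 31.2%, where 0.985%, 1.58% and 0.843% of all merged regions were. The groups overlapped, with a difference of -4.95 percentage points (exact two-sided permutation p = 0.3, adjusted p = 0.3). In lists of equal size it reversed to 9.78 percentage points (exact permutation p = 0.1). That cut to 4091 peaks left wt1b replicate 3 whole and removed narrower peaks mainly from control lists. Split regions went from 33, 38 and 34 to 23, 38 and 34 in wt1b replicates 1, 2 and 3. In control replicates 1, 2 and 3 they fell from 30, 42 and 39 to 13, 17 and 16. Nothing is therefore concluded from the reversal or its p-value. In the full lists the difference was -8.56 points without control replicate 1 (exact permutation p = 0.1) and -3.25 points without control replicate 2 (exact permutation p = 0.5). A single narrower peak stood at 31.4%, 39.9% and 43.2% of the regions in wt1b replicates 1, 2 and 3, and at 32.3%, 28.3% and 32.0% in control replicates 1, 2 and 3. On average, peaks covered 55.4%, 47.2% and 45.6% of the length of a region in wt1b replicates 1, 2 and 3, and 57.7%, 63.4% and 60.8% in control replicates 1, 2 and 3.

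**Figure D4:**
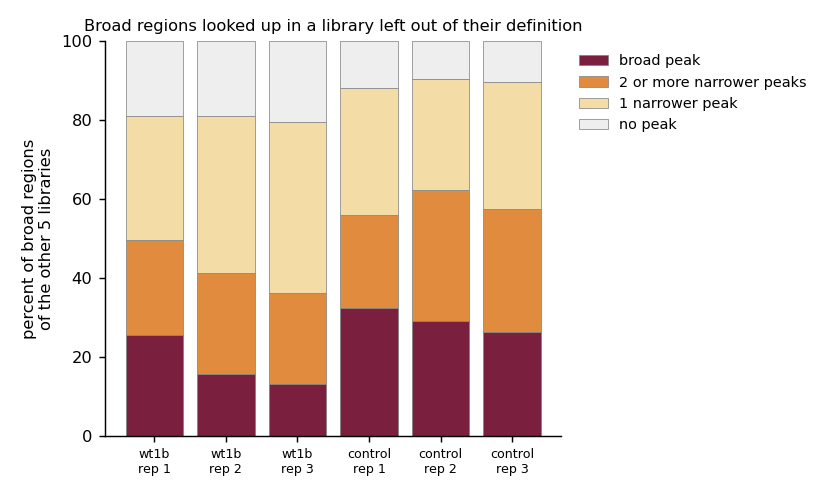
Fate of the broad regions of the other 5 libraries in the library left out of their definition (y axis, percent of 125 to 148 regions; wt1b libraries at the left, control libraries at the right). From the bottom, each bar stacks a broad peak, 2 or more narrower peaks, 1 narrower peak and no peak; 18.9% to 20.5% of regions have no peak in wt1b and 9.45% to 11.8% in control libraries.

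The regions looked up differ between the groups, because a wt1b library is set against 3 control and 2 wt1b lists and a control library against 2 control and 3 wt1b lists. Looking up the broad peaks of 1 library in 1 other removes this imbalance. Broad peaks of a wt1b library were broad in another wt1b library at 50.2% on average (30.0% to 64.0% over 6 ordered pairs) and in a control library at 58.9% (44.0% to 69.2% over 9 pairs). Broad peaks of a control library were broad in a wt1b library at 29.8% (19.0% to 44.4% over 9 pairs) and in another control library at 36.1% (30.2% to 43.1% over 6 pairs). These ranges, pooled over the supplying libraries, overlapped for either source. In the means, peaks supplied by wt1b libraries had the higher share in either group. These shares also depend on how many broad peaks each list supplies and holds, 25 to 50 in wt1b and 58 to 66 in control lists. Nothing is therefore concluded from their order. Within a single supplying library the groups were apart for wt1b replicate 1 only. Its peaks were broad at 32.0% and 30.0% in wt1b replicates 2 and 3, and at 48.0%, 54.0% and 44.0% in control replicates 1, 2 and 3. Broad peaks of a wt1b library had no peak at all in 3.33% of cases in another wt1b library and 3.5% in a control library, and those of a control library in 14.6% of cases in a wt1b library and 8.49% in another control library. The share over all peaks of the same pairs was not computed. Among peaks of 200 to 499 bp, 66.2% to 80.7% in wt1b and 19.2% to 32.2% in control lists had another library's peak over their centre. The contrast is therefore not read as a trait of broad peaks.

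Where a library split a region, the pieces overlapped the same region, so its length limits the gaps between them. The largest gap was 1830, 1706 and 1554 bp in wt1b replicates 1, 2 and 3, and 958, 1135 and 1031 bp in control replicates 1, 2 and 3. The median gap between pieces was 205, 316 and 265 bp in wt1b replicates 1, 2 and 3, and 187, 182 and 180 bp in control replicates 1, 2 and 3. Gaps of 200 bp or less made up 42.0% to 50.0% of these gaps in wt1b and 51.2% to 57.4% in control libraries. In each of the 6 lists the smallest gap between any neighbouring peaks was 101 bp, so stretches closer than that stand as 1 peak. Joining peaks up to 200 bp apart raised the number of broad peaks to 74, 37 and 42 in wt1b replicates 1, 2 and 3 and to 106, 131 and 118 in control replicates 1, 2 and 3, with 281 merged regions. The number of broad regions thus rests on the joining distance as well as on the width threshold, while the order of the groups was kept.

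Broad calls seen in a single library came in 2 kinds. At 82 of these 92 regions another library had a narrower peak. At the remaining 10 no other library had any peak. All 10 were control peaks, 6 in replicate 1, 1 in replicate 2 and 3 in replicate 3, with widths of 1502 to 2310 bp and scores of 316 to 877, and none was at the limit. Control peaks of other widths also lacked a match in another library more often than wt1b peaks. Of peaks of 200 to 499 bp, 19.2% to 32.2% in control lists had another library's peak over their centre. In wt1b lists 66.2% to 80.7% had. The share of a library's broad regions that no other library called broad was 27.1%, 8% and 17.4% in wt1b replicates 1, 2 and 3, and 37.5%, 38.3% and 44.8% in control replicates 1, 2 and 3. A wt1b library has 3 control lists to be matched in and a control library has 2, so these shares are not comparable between groups.

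Recurrence was set against width over whole lists by asking how many of the other 5 libraries had a peak over the centre of each peak, a position that does not widen with the peak. Broad peaks were met in 3.84, 4.31 and 3.92 other libraries on average in wt1b replicates 1, 2 and 3, and in 3.24, 3.49 and 3.28 in control replicates 1, 2 and 3. Peaks of 500 to 999 bp were met in 2.24, 2.81 and 2.73 other libraries in wt1b replicates 1, 2 and 3, and in 0.611, 1.1 and 0.925 in control replicates 1, 2 and 3. The class just under the threshold, of 1000 to 1499 bp, lay between these in every library, at 3.53 to 4.04 in wt1b and 1.56 to 2.72 in control lists. The order depended on the measure. In wt1b replicate 2, 60.8% of peaks of this class were met in all 5 other libraries, against 50.0% of broad peaks. In wt1b replicate 3, 94.5% of this class were met in 1 or more, against 92.0% of broad peaks. For each of these 2 shares broad peaks were higher in every other library. The mean was not lowest for the narrowest peaks. Those under 200 bp were met in 2.23 to 3.20 other libraries in wt1b and 0.852 to 1.12 in control lists, above the class of 200 to 499 bp in each library. By the share met in all 5 other libraries they were below that class in wt1b replicate 2 (24.2% against 24.5%) and wt1b replicate 3 (19.9% against 23.8%). They were above it in every other library. A wt1b peak has 3 long control lists among its partners and a control peak has 2, so levels are not comparable between groups.

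**Figure D5:**
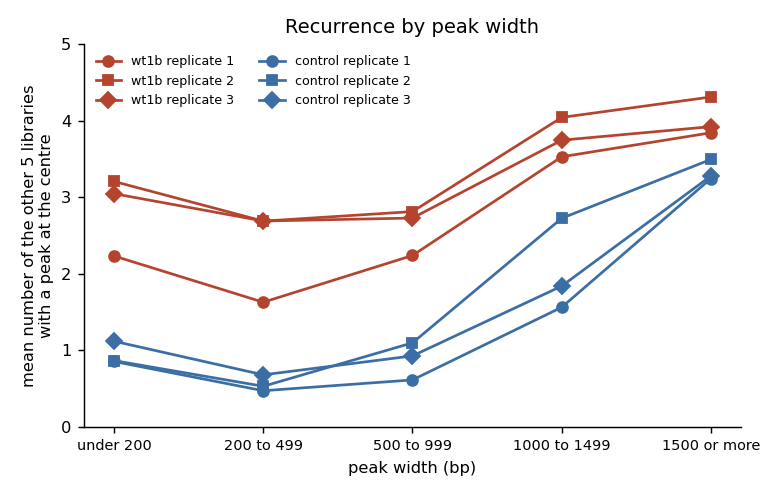
Mean number of the other 5 libraries with a peak over the centre of a peak (y axis), by width of the peak (x axis, classes in bp), with a line for each library, wt1b in red and control in blue. In every library the mean is highest for peaks of 1500 bp or more and lowest for the class of 200 to 499 bp. For peaks of 1500 bp or more it is 3.84 to 4.31 in wt1b and 3.24 to 3.49 in control libraries.

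Broad peaks lay close to other peaks of their own list. The median distance from the edge of a broad peak to the nearest other peak was 844, 656 and 763 bp in wt1b replicates 1, 2 and 3, and 804, 610 and 933 bp in control replicates 1, 2 and 3. For the other peaks of the same lists it was 20635, 44103 and 49876 bp in wt1b replicates 1, 2 and 3, and 10838, 9616 and 12412 bp in control replicates 1, 2 and 3. Over the 6 libraries the median averaged 768 ± 120 bp for broad and 24580 ± 17874 bp for other peaks (SD, n = 6 libraries), and it was shorter for broad peaks in 6 of 6 (exact two-sided sign-flip permutation p = 0.0312, the smallest possible). The libraries share many of these regions, so they are not fully independent. No list had neighbouring peaks closer than 101 bp, so width and spacing both depend on how stretches were joined into peaks. The nearest peak could also be another piece of the same stretch. At chr11:17564987-17569466, for example, the 2 peaks of wt1b replicate 2 lay 146 bp apart. Nothing is therefore concluded from this p-value about where broad peaks lie. Set against narrower peaks at the score limit alone, whose medians were 11897, 13219 and 21719 bp in wt1b replicates 1, 2 and 3 and 6572, 4769 and 7115 bp in control replicates 1, 2 and 3, broad peaks again had the nearer neighbour in every library. Another peak lay within 1 kb of 52.0% to 68.0% of broad peaks in wt1b and 51.7% to 57.6% in control libraries, against 17.5% to 20.6% and 13.4% to 19.0% of other peaks.

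Some of the merged regions lay near each other. The share over all merged regions was not computed, so grouping is not read as a trait of broad regions. Neighbouring regions may also be pieces of 1 stretch. On chromosome 16, for example, a region ended at 36407469 and the next began at 36407531. With a window of 20 kb, chosen after the data were seen, 52 of the 150 regions fell into 21 groups of 2 or more. Of the 58 regions broad in 2 or more libraries 33 (56.9%) were in such groups, and of the 92 broad in 1 library 19 (20.7%) were. The largest groups held 4 regions each, at chr8:34775927-34802856, chr16:36404405-36417871 and chr20:53965118-53982283. In these 3 groups no region was broad in more than 3 libraries. Another 4 groups held 3 regions each, at chr3:26111238-26128970, chr4:28558656-28588308, chr8:35044654-35056834 and chr16:15655309-15667243. Of the 8 regions broad in all libraries 6 had another broad region within 20 kb, the exceptions being those on chromosome 11 and on chromosome 7 from 53012044.

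Broad regions were spread unevenly over the chromosomes. Chromosome 8 held 16 (10.7%), where it held 4.03% of all merged regions, and chromosome 16 held 13 (8.67%, against 4.01%). Chromosomes 3 and 4 held 11 each (7.33%, against 4.63% and 3.48%) and chromosome 10 held 10 (6.67%, against 3.33%). Chromosomes 6 and 12 held 1 each (0.667%, against 4.89% and 3.94%), and chromosome 5 held 2 (1.33%, against 5.51%). Nearby regions are not independent of each other, and these shares were not tested. On chromosome 4, 9 of the 11 lay beyond 28 Mb, 6% of the broad regions against 1.14% of all merged regions. Within 500 kb of the first base or of the last peak of a chromosome lay 13 regions (8.67%), against 3.81% of all merged regions, and 4 of these 13 were broad in 2 or more libraries.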

How the data were processed

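The deposited data were 6 lists of ATAC-seq peaks, 1 per library, without a header; replicates had not been pooled. Each line held a sequence, start, end, name, score and empty strand. The score is a whole number from the authors' peak caller, limited to 1000 in the deposited lists; width is end minus start. The submitters' processing notes name Trimmomatic, Bowtie2, SAMtools, Picard, Genrich, DiffBind, DESeq2, ChIPseeker and deepTools, without roles, versions or settings, and the build GRCz11; how peaks were called and joined is not given in the sources used here. No read counts were in the lists, so depth is unknown, and intervals cover counting error of peaks only.

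Positions are printed counted from 1. Python 3.11.15 with pandas 2.3.3 and scipy 1.17.1 was used, and merging and overlap counts were checked with bedtools 2.31.1 and on simulated lists. A region was broad in a library with an overlapping peak of 1500 bp or more, and split with 2 or more narrower peaks. Called length sums the full widths of overlapping peaks, with any bases outside the region. Libraries were grouped by title. Group differences were tested by exact permutation of 3 against 3 libraries, and broad against other peaks by exact sign-flips over 6 libraries. Members, threshold and comparisons were chosen with earlier results of these data known. Named regions were the 10 broad in most libraries (ties by mean width), the 5 widest peaks outside them, and up to 5 regions per group broad in 2 or 3 of its libraries and in none of the other. Alternatives covered threshold, sequences, overlap, list size, joining distance, the replicate block and the omission of each library. The planned results on transcription starts and GC content needed an annotation or genome in these coordinates and were not run.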

Additional observations from a re-analysis of the deposited data

Results flagged for a closer look

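Peaks on unplaced scaffolds take no part in the comparisons above. Of these peaks, 16 of 142 (11.3%, exact 95% interval 6.58% to 17.7%), 17 of 90 (18.9%, 11.4% to 28.5%) and 14 of 97 (14.4%, 8.12% to 23.0%) were 1500 bp or wider in wt1b replicates 1, 2 and 3. In control replicates 1, 2 and 3 they were 16 of 485 (3.30%, 1.90% to 5.30%), 17 of 509 (3.34%, 1.96% to 5.29%) and 15 of 371 (4.04%, 2.28% to 6.58%). The mean share was 14.9% in wt1b libraries, above the 3.56% of control libraries, which is what drew attention to it. The number of broad scaffold peaks was nearly equal in the groups, at 15.7 ± 1.53 in wt1b and 16.0 ± 1.00 in control libraries (SD, n = 3 each), unlike that on the chromosomes, and the shares differ because the wt1b lists hold fewer scaffold peaks, 110 ± 28.2 against 455 ± 73.7 (SD, n = 3 each). These broad peaks merged into 19 regions on 10 scaffolds, of which 12 (63.2%) were broad in all 6 libraries, against 8 of 150 (5.33%) on the chromosomes. The widest measured 8508 bp.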

How the results depend on the processing

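The number and the look-up of broad calls stayed lower in wt1b than in control lists in each of their 13 alternatives. Lists of equal size and the replicate block cannot change these values, so they add no support. For the look-up of broad calls only the sign was kept throughout. It was -5.67 percentage points at 2000 bp (exact permutation p = 0.4) and -10.2 with an overlap of 50% of the narrower peak (exact permutation p = 0.2). Without control replicates 1, 2 and 3 it was -9.91, -14.3 and -14.1 (exact permutation p = 0.3, 0.2 and 0.2). Its other permutation tests gave p = 0.1. With a threshold of 1200 bp the difference in number (wt1b minus control) moved from -28.7 to -90.0 peaks and that in share from 0.365 to 0.768 percentage points, with 432 merged regions, 128 of them broad in 2 or more libraries. With 2000 bp these values were -4.00, 0.193, 44 and 21. The look-up of any peak differed by -13.1 percentage points at 1200 bp (exact permutation p = 0.1) and by -3.66 at 2000 bp (exact permutation p = 0.3). That of split regions differed by -4.56 at 1200 bp (exact permutation p = 0.1) and by -1.13 at 2000 bp (exact permutation p = 0.7). Over all sequences the difference in share was 0.602 points, and in lists of equal size, which keep all broad peaks and lose narrower ones, it turned to -0.701. There the look-up of any peak reversed to 2.22 and that of split regions to 9.78 percentage points. The cut to equal size fell mainly on control lists, so nothing is concluded from these reversals. Joining peaks up to 200 bp apart, an alternative chosen after the data were seen, gave a difference of -67.3 peaks, 281 regions and 99 broad in 2 or more libraries; joining up to 500 bp gave -144 peaks. Without 1 library at a time, the difference in number ranged from -36.8 to -24.3 and that in share from 0.347 to 0.393, with 125 to 148 regions, 43 to 54 of them recurrent. The look-ups ranged from -10.2 to -6.87 (any peak), -16.2 to -8.80 (broad) and -8.56 to -3.25 (split); the split value was -8.56 without control replicate 1 (exact permutation p = 0.1) and -3.25 without control replicate 2 (exact permutation p = 0.5). The distance of broad minus other peaks ranged from -26773 to -18752 bp, where 5 libraries allow no p under 0.0625. With the replicate block the look-up differences were unchanged at -8.93, -11.2 and -4.95 (exact sign-flip p = 0.25, 0.25 and 0.5, smallest possible 0.25). The replicate numbers did not appear to pair the libraries: correlations of called base pairs, as deviations from group means over 71293 regions, were -0.0860, -0.0279 and -0.0413. Transcription starts and GC content were not run.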
